A study of Mus musculus with 6 samples.

Results

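The genes described here are Hif1a, which encodes the oxygen-regulated subunit of the hypoxia-inducible factor HIF-1, and 9 genes of hypoxia and glycolysis, Vegfa, Slc2a1, Pgk1, Ldha, Eno1, Aldoa, Pdk1, Bnip3 and Car9. They were chosen by gene symbol, 10 of the 43472 symbols listed in the deposited tables. All 10 were among the 16152 genes that passed the filter on low counts and were tested. RNA-seq was performed on whole intervertebral discs (IVDs) of the thoracic and lumbar spine at postnatal day 20, with 3 control and 3 mutant libraries, each from the pooled discs of 2 to 3 mice. The comparison asks how gene expression in the disc differs when Adgrg6 (also named Gpr126), an adhesion G protein-coupled receptor gene, is removed from cartilage before the disc shows overt damage.

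Mutant mice were Col2Cre;Adgrg6 f/f, that is, both floxed alleles of Adgrg6 were exposed to a Cre recombinase driven by Col2a1 regulatory sequence. Control mice are given as wild type in the genotype label, as Col2Cre controls in the sample titles and as Cre (-) littermates in the paper's results. The strain of all 6 pools is given as C57B6/J, and the sex is not given in the sources used here. This Cre acts from embryonic development on and recombines the entire disc and also the periosteum and vertebral bone, so a difference cannot be assigned to one disc compartment. The discs were not divided into nucleus pulposus, annulus fibrosus and endplate, and in such bulk RNA fewer cells of a type and less RNA per cell cannot be told apart.

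HIF-1 is a pair of proteins, HIF-1α from Hif1a and the constant partner ARNT. When oxygen is plentiful, prolyl hydroxylases of the Egln family mark HIF-1α for destruction through the VHL ubiquitin ligase, so its activity is set mainly at the level of the protein and not of the Hif1a transcript. In low oxygen HIF-1α persists and activates genes of glucose uptake, glycolysis, lactate output, blood vessel growth and mitophagy. The IVD and the cartilage next to it have few or no vessels, and their cells are known for HIF-1 activity and a high rate of glycolysis in normal tissue.

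HIF-1 binds short DNA sites whose core is ACGTG, with the first letter replaced by G in a common variant, so the promoter sequences of genes that the comparison below turns on are shown. The windows are RefSeq promoters on GRCm38.p6, 250 bases before to 50 bases after a start site, 5′ to 3′ on the gene's strand, with the core ACGTG (read as CACGT from the opposite strand) and its variant GCGTG (read as CACGC from that strand) in capitals. Sites that overlap, as in CACGTG, are counted as 1 place. Ldha is shown because its window holds the most places of the set, 5.

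Ldha, chr7:46845554-46845853, plus strand: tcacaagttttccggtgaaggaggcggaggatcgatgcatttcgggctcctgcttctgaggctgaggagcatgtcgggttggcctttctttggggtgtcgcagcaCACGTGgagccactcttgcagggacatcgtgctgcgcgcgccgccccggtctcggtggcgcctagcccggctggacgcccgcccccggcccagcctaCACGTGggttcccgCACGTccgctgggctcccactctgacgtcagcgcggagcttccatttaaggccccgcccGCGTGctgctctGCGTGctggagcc

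Bnip3 is shown because it alone differed without overlap between the groups (below), and Car9 because it is widely used as a marker of HIF-1 activity. The Bnip3 window holds 4 places and the Car9 window 1, which starts 18 bases before the start site.

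Bnip3, chr7:138909457-138909756, minus strand: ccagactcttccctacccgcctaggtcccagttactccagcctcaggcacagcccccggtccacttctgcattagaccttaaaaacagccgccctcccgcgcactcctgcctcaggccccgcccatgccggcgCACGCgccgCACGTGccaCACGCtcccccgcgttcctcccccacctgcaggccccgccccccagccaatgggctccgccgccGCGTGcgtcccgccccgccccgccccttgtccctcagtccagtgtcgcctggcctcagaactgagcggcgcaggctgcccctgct

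Car9, chr4:43506776-43507075, plus strand: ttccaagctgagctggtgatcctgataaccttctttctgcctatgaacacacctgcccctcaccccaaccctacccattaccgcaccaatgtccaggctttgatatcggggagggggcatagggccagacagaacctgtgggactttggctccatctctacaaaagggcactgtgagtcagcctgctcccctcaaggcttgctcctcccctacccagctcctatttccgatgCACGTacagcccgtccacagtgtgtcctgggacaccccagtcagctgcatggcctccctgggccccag

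Vegfa had the lowest p of the set, and its 2 windows differ. The window at the upstream start holds none of these letters, and that of an internal start holds 2 places.

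Vegfa, chr17:46032328-46032627, minus strand: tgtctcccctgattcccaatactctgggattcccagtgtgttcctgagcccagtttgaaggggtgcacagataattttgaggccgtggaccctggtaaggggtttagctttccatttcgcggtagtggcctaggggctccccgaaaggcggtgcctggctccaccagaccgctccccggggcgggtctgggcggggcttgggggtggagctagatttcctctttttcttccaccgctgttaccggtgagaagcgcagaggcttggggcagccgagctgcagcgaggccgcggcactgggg

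Vegfa, chr17:46025114-46025413, minus strand: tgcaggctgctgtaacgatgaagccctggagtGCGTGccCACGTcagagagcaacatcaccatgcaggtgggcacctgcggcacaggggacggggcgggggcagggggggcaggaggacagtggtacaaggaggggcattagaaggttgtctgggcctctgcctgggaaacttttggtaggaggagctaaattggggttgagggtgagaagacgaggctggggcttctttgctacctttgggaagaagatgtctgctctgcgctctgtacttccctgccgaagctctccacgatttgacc

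All 10 genes have at least 1 window that holds the core or its variant on either strand, and 14 of their 17 windows do. Vegfa counts here, and for ACGTG below, only through the window of its internal start, which lies inside the gene. ACGTG itself is present in at least 1 window of 8 of the 10 genes. The share of all genes with ACGTG was not computed, and the share of windows given next cannot be set against this count of genes. The 10 genes also have 17 windows, where all 27025 genes have 32851, and a gene with more windows can match more easily. Such letters are common: 43.77% of all 32851 promoter windows, and 46.73% of the 27025 genes with a window, hold at least 1 of these, 19.62% of the windows hold the core ACGTG and 32.39% hold the variant with G. The matches describe the sequence and show no binding.

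Total counts on genes were 9061491 to 12017008 per library, which was 40.44% to 44.16% of the counted reads. The targeted gene, listed as Gpr126, had 123.6, 107.8 and 94.28 CPM (counts scaled to the library's effective total) in control replicates 1, 2 and 3 and 137.9, 123.6 and 105.8 in the mutant replicates, with a log2 fold change of 0.17 ± 0.18 (SE, unadjusted p = 0.367), and counts over the whole gene do not measure the deleted part. Cartilage markers were abundant in every library, with 8 chondrocyte genes summing to 77199 to 132310 CPM in controls and 111670 to 138170 in mutants, although 6 of them had log2 fold changes below 0 (median -0.30) and 1 was lower by the test described below. Control replicate 1 stood apart by skeletal muscle RNA: 9 muscle genes summed to 4454 CPM there and to 203.6 to 292.5 CPM in the other 5 libraries, and Acta1, the muscle actin, had 1260 CPM against 11.1 to 65.4. Marker lists of other tissue are given here by group, beside 2.89% of all genes tested that were higher in mutants and 4.32% that were lower at an unadjusted p under 0.05. All 7 red blood cell genes had log2 fold changes above 0, with a median of 1.02, 1 of them at an unadjusted p under 0.05, and sums of 39.6 to 341.9 CPM in controls and 212.7 to 448.9 in mutants, which overlap. All 7 neutrophil genes were above 0 as well, with a median of 0.99, 1 of them passing, and sums of 16.2 to 57.1 CPM in controls and 29.2 to 138.2 in mutants, which also overlap. All 5 tested macrophage genes were above 0, with a median of 0.35, 1 of them higher, and sums of 43.99 to 57.4 CPM in controls and 49.9 to 82.1 in mutants. Of 6 annulus and tendon genes 3 were higher and none lower, with a median of 0.72 and sums of 4038 to 13103 CPM in controls and 11818 to 20588 in mutants, and of 6 osteoblast genes 2 were higher and 1 lower. Of 6 hypertrophic chondrocyte genes 4 were lower, with a median of -0.81. Of 5 tested neuron and glia genes 1 was higher, and the sums of 206.7 to 1610 CPM in controls and 872.5 to 3476 in mutants overlap. No gene of the nucleus pulposus, endothelium or adipocyte lists was called. The part of these markers in the values of the 10 genes was not tested.

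Of the 10 genes, 2 passed an unadjusted test and none an adjusted one. After adjustment no single gene of the set was thus shown to differ between mutant and control discs beyond the spread between pools. The set as a whole was not tested. Of the 10 log2 fold changes of mutant over control, 9 were above 0, with a median of 0.31, where 48.4% of all genes tested were above 0 and their median was -0.01. In edgeR's quasi-likelihood test 2 of the 10, Vegfa and Bnip3, were higher at an unadjusted p under 0.05 and none was lower, where 2.89% of all genes tested were higher and 4.32% lower by this rule. None of the 10 had an adjusted p under 0.05 with Benjamini-Hochberg adjustment over all genes, a rule that 1 gene in the series, or 0.00619%, passed. The adjusted p of Vegfa was 0.676 and that of Bnip3 0.691. DESeq2 and limma-voom also called none of the 10 at an adjusted p under 0.05 and each called 4 at an unadjusted p under 0.05. DESeq2 tested 26372 genes, not the 16152 of the edgeR test, and 6.07% of them passed this unadjusted rule. With limma-voom 9.14% of the 16152 passed it. In edgeR that share of all genes, 7.21% in either direction with 6 libraries, itself moved with the library left out: dropping control replicates 1, 2 and 3 in turn gave 14.1%, 5.59% and 3.77%. Dropping mutant replicates 1, 2 and 3 gave 4.76%, 9.76% and 5.1%, and the counts given below for such fits are to be read against these shares. Because p-values compare 3 pools with 3, they reflect the spread between these pools.

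**Figure D1:**
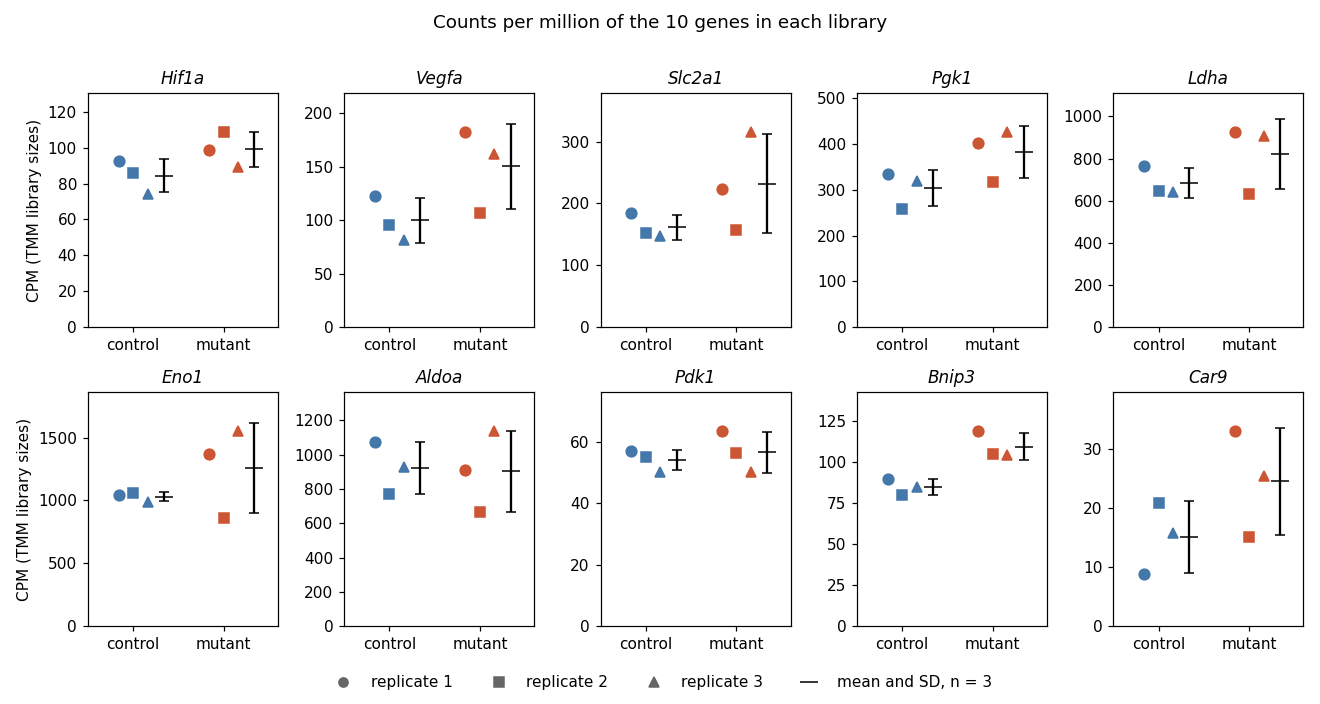
CPM (vertical axes, from 0) of each of the 10 genes in the 3 control and the 3 mutant libraries, with marker shapes for the replicates and bars for the mean and SD. Only Bnip3 has all mutant libraries above all control libraries, and mutant replicate 2 (squares) lies near the control libraries for most genes.

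Hif1a (ENSMUSG00000021109.13, chromosome 12, 73901375 to 73947530, plus strand) had 92.7, 85.7 and 74.4 CPM in control replicates 1, 2 and 3 and 98.9, 108.8 and 89.5 CPM in the mutant replicates. The groups overlapped in a single place, mutant replicate 3 below control replicate 1. The means were 84.3 ± 9.22 (SD, n = 3) and 99.0 ± 9.66 CPM, a log2 fold change of 0.23 ± 0.17 (SE) with unadjusted p = 0.199. The transcript of the regulated HIF-1 subunit was therefore not shown to differ beyond the spread, with a 95% interval of -0.14 to 0.61.

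Vegfa (ENSMUSG00000023951.17, chromosome 17, 46016993 to 46032369, minus strand) encodes the main secreted growth factor for blood vessels and is also made by hypertrophic cartilage. It had 122.9, 95.9 and 81.2 CPM in the control replicates and 182.4, 106.4 and 161.8 CPM in the mutant replicates. Mutant replicates 1 and 3 were above all controls, and mutant replicate 2 was below control replicate 1. The fold was 1.5 (95% interval 1.04 to 2.18), a log2 fold change of 0.59 ± 0.24 with unadjusted p = 0.0344. Leaving out control replicate 2 or 3 or mutant replicate 1 or 3 each brought p above 0.05, to at most 0.114, while the log2 fold change stayed between 0.46 and 0.80 over all 6 such fits. Of 6 genes listed as markers of hypertrophic chondrocytes, a cell type that makes VEGF, 4 were lower at an unadjusted p under 0.05 and none higher, against 4.32% and 2.89% of all genes. Their sum was 1560 to 2811 CPM in controls and 1241 to 1506 CPM in mutants. The part of this shift in the value of Vegfa was not tested.

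Bnip3 (ENSMUSG00000078566.8, chromosome 7, 138890836 to 138909519, minus strand) encodes a mitochondrial receptor of mitophagy, the removal of mitochondria that cells use when oxygen is low. Control replicates had 89.5, 79.8 and 84.5 CPM and mutant replicates 118.7, 104.9 and 104.1 CPM. Every mutant library was above every control library, which held for 1 of the 10 genes and for 5.45% of all genes tested. None of the 10 had every mutant library below every control library, which held for 5.96% of all genes. The fold was 1.29 (95% interval 1.01 to 1.65), a log2 fold change of 0.37 ± 0.16 with unadjusted p = 0.0440. As for Vegfa, p passed 0.05 without control replicate 2 or 3 or mutant replicate 1 or 3, reaching at most 0.132, with log2 fold changes of 0.32 to 0.43. With library totals as the sole scaling, which lowers the median of all genes to -0.13, the log2 fold change was 0.25 and unadjusted p = 0.148. The call was also lost with no filter on low counts (0.39, unadjusted p = 0.0659). Bnip3l, the related mitophagy receptor NIX, had 69.8 to 84.7 CPM in controls and 82.3 to 95.5 in mutants (log2 fold change 0.24 ± 0.17, unadjusted p = 0.169).

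Car9 (ENSMUSG00000028463.14, chromosome 4, 43506966 to 43513729, plus strand) encodes a membrane carbonic anhydrase that exports acid and is a classical marker of hypoxia. It was the least counted of the set, with 82 to 290 counts per library. The controls had 8.78, 20.9 and 15.7 CPM and the mutants 33.0, 15.1 and 25.4 CPM. Mutant replicates 1 and 3 exceeded every control, and mutant replicate 2 fell between control replicates 1 and 3. In the fit of all 6 libraries the fold of 1.62 was the highest of the 10 and also the least precise (95% interval 0.95 to 2.75, log2 fold change 0.69 ± 0.35, unadjusted p = 0.0731). The value depended on single pools: it was 0.44 (unadjusted p = 0.189) without control replicate 1 and 0.46 (unadjusted p = 0.236) without mutant replicate 1, but 0.97 (unadjusted p = 0.0140) without mutant replicate 2 and 0.98 (unadjusted p = 0.0251) without control replicate 2. Its rank within the set changed too, since without control replicate 1 Vegfa was at 0.78 and Slc2a1 at 0.65, and limma-voom gave Car9 0.58, Vegfa 0.67 and Slc2a1 0.66. Car12, a carbonic anhydrase of the same membrane family, went the other way: its 54.5 to 76.9 CPM in mutants were below the 79.3 to 150.5 CPM in controls (log2 fold change -0.74 ± 0.25, unadjusted p = 0.0130). The value of Car12 was -0.43 with unadjusted p = 0.0685 when control replicate 1 was left out, and -0.59 with unadjusted p = 0.0675 without mutant replicate 1.

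**Figure D2:**
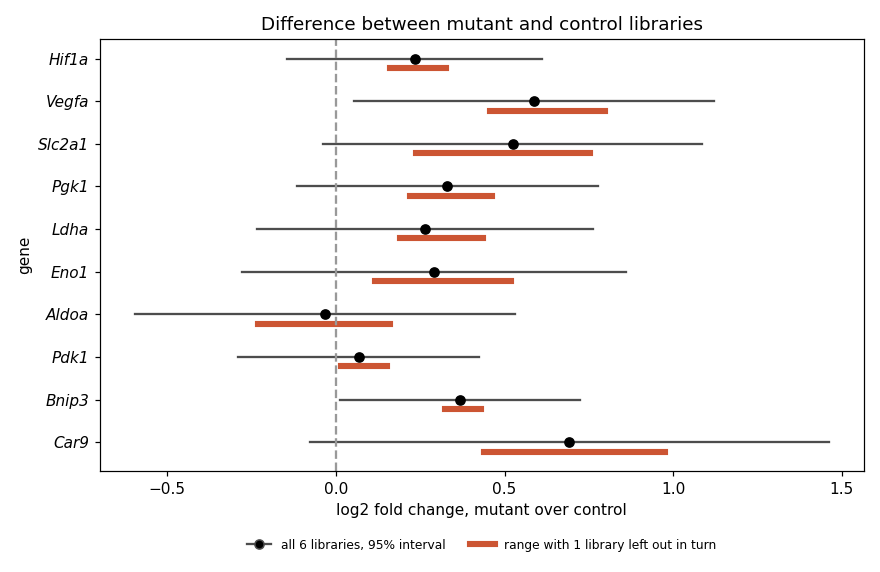
Log2 fold change of mutant over control (horizontal axis) for each of the 10 genes, with black points and lines for the value and 95% interval over all 6 libraries and orange bars for the range when 1 library at a time is left out. The intervals of Vegfa and Bnip3 lie above 0, and Aldoa is the gene whose range with a library left out crosses 0.

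Glucose enters cartilage cells mainly through GLUT1, encoded by Slc2a1 (ENSMUSG00000028645.11, chromosome 4, 119108711 to 119137983, plus strand). Slc2a1 had 183.9, 151.8 and 147.9 CPM in controls and 223.2, 156.5 and 315.5 CPM in mutants. Mutant replicates 1 and 3 were above all controls and mutant replicate 2 was inside their range. The log2 fold change was 0.52 ± 0.25 with unadjusted p = 0.0645. The value depended on single pools, from 0.24 (unadjusted p = 0.339) without mutant replicate 3 to 0.75 (unadjusted p = 0.00864) without mutant replicate 2. Without control replicate 1, the pool with muscle RNA, it was 0.65 with unadjusted p = 0.0401. On all 6 libraries the unadjusted p of Slc2a1 was 0.0235 with DESeq2, 0.0159 with limma-voom and 0.0229 with no filter on low counts. In the other alternative fits of all 6 libraries it was above 0.05, at most 0.121. The adjusted p was above 0.05 in each of these fits.

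Of 12 other genes listed under glucose and lactate transport, all tested, 1 was higher and none lower at an unadjusted p under 0.05, against 2.89% and 4.32% of all genes. Of the 12, 5 were above 0, and the median log2 fold change was -0.27. That median lay between -0.32 and -0.03 when single libraries were left out, being nearest 0 without mutant replicate 1, next at -0.07 without control replicate 1, and limma-voom gave -0.04. The count was 0 without control replicate 3 or mutant replicate 3. The gene that passed was Slc16a3, which encodes MCT4, the carrier that exports lactate from glycolytic cells. It had 181.0, 124.7 and 124.5 CPM in controls and 229.9, 161.5 and 254.3 CPM in mutants (log2 fold change 0.59 ± 0.23, unadjusted p = 0.0303, adjusted p above 0.05). Without control replicate 2 or 3 or mutant replicate 1 or 3 its p was 0.0677 to 0.1195. Slc2a3, encoding the related glucose carrier GLUT3, had 13.0 to 21.0 CPM in controls and 10.2 to 16.8 in mutants (log2 fold change -0.18 ± 0.27, unadjusted p = 0.526).

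Of the 4 glycolytic enzymes in the set, 3 had log2 fold changes of 0.26 to 0.33, and none passed the test. Pgk1 (ENSMUSG00000062070.12, chromosome X, 106187100 to 106203699, plus strand), phosphoglycerate kinase, had 333.8, 258.8 and 318.6 CPM in controls and 401.5, 318.0 and 426.6 CPM in mutants (0.33 ± 0.20, unadjusted p = 0.130). Ldha (ENSMUSG00000063229.15, chromosome 7, 46841475 to 46855627, plus strand), the lactate dehydrogenase subunit that favours making lactate, had 763.7, 646.2 and 642.6 CPM in controls and 926.2, 632.2 and 905.9 CPM in mutants (0.26 ± 0.22, unadjusted p = 0.266). Eno1 (ENSMUSG00000063524.13, chromosome 4, 150236721 to 150248879, plus strand), the common enolase, had 1047, 1057 and 989.5 CPM in controls and 1372, 860.5 and 1552 CPM in mutants (0.29 ± 0.26, unadjusted p = 0.281). In each of these, mutant replicates 1 and 3 were above every control, and mutant replicate 2 was inside the control range or, for Ldha and Eno1, below it. With single libraries left out Pgk1 was 0.22 to 0.46, Ldha 0.19 to 0.44 and Eno1 0.12 to 0.52, each highest without mutant replicate 2, and Ldha and Eno1 were lowest without mutant replicate 3. None of these fits called any of the 3, while limma-voom called Pgk1 (0.46, unadjusted p = 0.0255).

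Aldoa (ENSMUSG00000030695.16, chromosome 7, 126795234 to 126800751, minus strand), the aldolase of muscle and most other tissues, was the gene of the set with a fold change below 0. The controls had 1074, 772.5 and 927.8 CPM and the mutants 908.3, 665.7 and 1138 CPM, so each group held a high and a low pool. The log2 fold change was -0.03 ± 0.25 (unadjusted p = 0.900). The highest control value was in replicate 1, the pool with muscle RNA. Without that pool the log2 fold change was 0.11 (unadjusted p = 0.697), without mutant replicate 2 it was 0.16 (unadjusted p = 0.553), and limma-voom with quality weights gave 0.15 (unadjusted p = 0.521). Eno3, the muscle enolase, depended on the same pool: it had 152.9 CPM in control replicate 1 and 25.4 to 30.6 CPM in the other 5 libraries, with log2 fold changes of -1.26 ± 0.58 (unadjusted p = 0.0542) with it and 0.12 (unadjusted p = 0.569) without it. With no filter on low counts its adjusted p was 0.0180, on all 6 libraries.

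**Figure D3:**
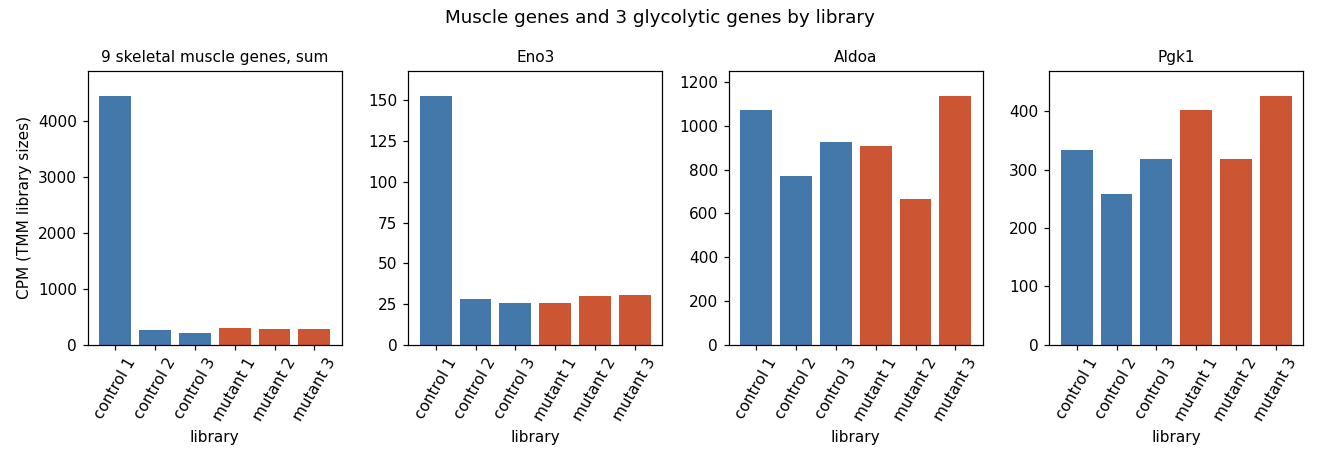
CPM by library (bars, axes from 0; control in blue, mutant in orange) of the sum of 9 skeletal muscle genes and of Eno3, Aldoa and Pgk1. The muscle sum and Eno3 are high in control replicate 1 alone, at 4454 and 152.9 CPM, while Aldoa and Pgk1 vary among all libraries.

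Pdk1 (ENSMUSG00000006494.11, chromosome 2, 71873224 to 71903858, plus strand) encodes a kinase that turns off pyruvate dehydrogenase and so keeps pyruvate out of the mitochondria. It was the steadiest of the 10, with 56.9, 55.0 and 50.3 CPM in controls and 63.5, 56.4 and 50.1 CPM in mutants. The log2 fold change was 0.07 ± 0.16 (unadjusted p = 0.681, 95% interval -0.29 to 0.43), and it was -0.05 with library totals as the sole scaling and 0.02 to 0.15 with single libraries left out. Of 10 other genes of pyruvate dehydrogenase control, none was called in either direction at an unadjusted p under 0.05, and the median was 0.10. Among its relatives, Pdk2 gave a log2 fold change of 0.25 ± 0.25, Pdk3 of 0.31 ± 0.26 and Pdk4 of -0.49 ± 0.48, with p from 0.259 to 0.343. With single libraries left out Pdk2 was 0.045 to 0.44, Pdk3 0.14 to 0.49 and Pdk4 -0.72 to -0.04. Without control replicate 1 the values were 0.44 for Pdk2 and -0.04 for Pdk4, the median of the 10 other genes was 0.26, and 1 of them was called, against 14.1% of all genes. Dropping control replicate 3 gave a median of 0.04, dropping mutant replicate 1 gave 0.05, dropping mutant replicate 3 gave 0.19, and library totals alone gave -0.0041.

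The 3 mutant pools did not behave alike for these genes. Relative to the mean log2 CPM of the controls, the 10 genes averaged 0.48 in mutant replicate 1, 0.01 in mutant replicate 2 and 0.46 in mutant replicate 3, while the control replicates averaged 0.07, -0.01 and -0.06. For the 4 glycolytic enzymes the mutant averages were 0.31, -0.19 and 0.45, and for the other 6 genes 0.59, 0.15 and 0.47. Mutant replicate 2 had the lowest value among the mutants for 7 of the 10 genes and was at or below the top of the control range for 8, the exceptions being Hif1a and Bnip3. No control library was the highest of the 6 for any of the 10 genes; that was mutant replicate 1 for 5, mutant replicate 3 for 4 and mutant replicate 2 for 1, Hif1a. The other glycolysis enzymes had the same order as the averages of the 4 glycolytic members, with mutant replicate 3 first and mutant replicate 2 below every control: they summed to 4938 to 5242 CPM in the controls and to 5971, 4261 and 6793 CPM in mutant replicates 1, 2 and 3.

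**Figure D4:**
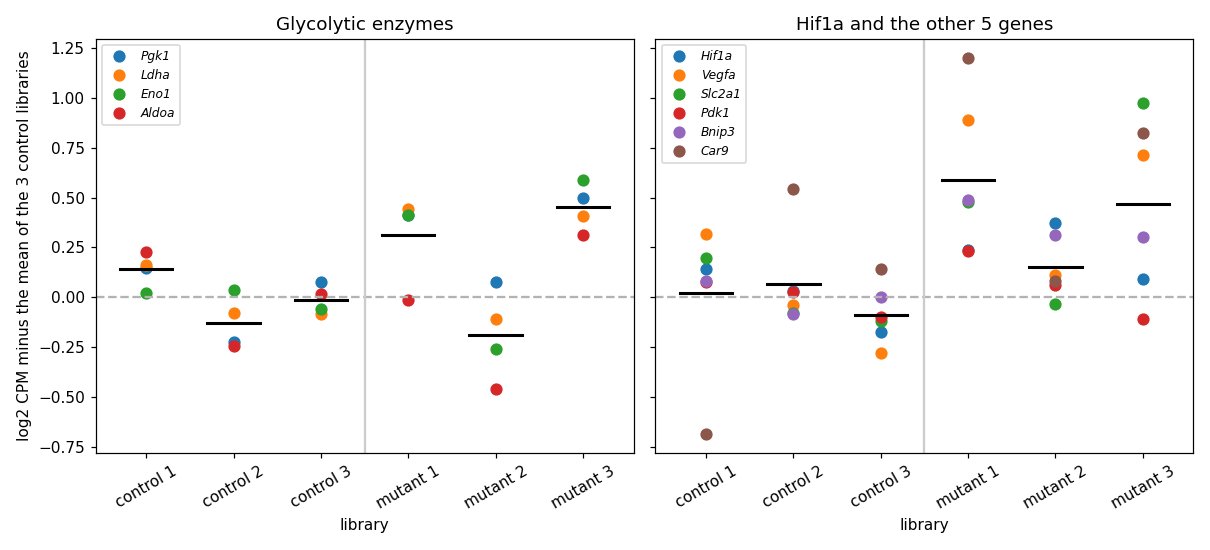
Log2 CPM of each gene minus its mean over the 3 control libraries (vertical axis) by library, for the 4 glycolytic enzymes and for Hif1a and the other 5 genes, with black bars for the mean over genes. Mutant replicates 1 and 3 average 0.31 and 0.45 for the glycolytic enzymes and mutant replicate 2 averages -0.19.

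Ratios of relatives within a library need no scaling between libraries, and 8 were put to an exact two-sided permutation test over libraries, which cannot go below p = 0.1 with 3 libraries against 3. The log2 ratio of Ldha to Ldhb, the subunit that favours using lactate, was 4.61, 4.21 and 4.22 in controls and 5.002, 4.63 and 5.16 in mutants. All mutants were above all controls, by 0.59 on average (p = 0.1 in the exact test, adjusted p = 0.4 over the 8 ratios). Ldhb itself had 31.4 to 35.0 CPM in controls and 25.4 to 28.9 in mutants (log2 fold change -0.34 ± 0.16, unadjusted p = 0.0578). The log2 ratio of Vegfa to Vegfb, a relative with little role in vessel sprouting, was 1.69, 1.89 and 1.18 in controls and 2.74, 2.40 and 2.28 in mutants. Again all mutants were above all controls, by 0.89 (exact p = 0.1, adjusted p = 0.4). Vegfb gave a log2 fold change of -0.31 ± 0.23 (unadjusted p = 0.198), which was -0.12 without mutant replicate 2 or with limma-voom, -0.18 without control replicate 1, and -0.47 and -0.49 without control replicate 2 and mutant replicate 3. The other 6 ratios, Slc2a1 to Slc2a3, Hif1a to Epas1, Pdk1 to Pdk4, Eno1 to Eno3, Aldoa to Aldoc and Bnip3 to Bnip3l, overlapped between the groups, with exact p from 0.2 to 0.9.

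The members differ widely in level. Per kilobase of summed annotated exon length, the scale on which genes can be compared, Aldoa was the highest in all 6 libraries, with a level of 317.7 ± 51.8 CPM per kb in controls and 310.5 ± 81.1 in mutants. Ldha (206.7 ± 20.8 and 248.2 ± 49.6 CPM per kb) and Eno1 (191.7 ± 6.75 and 234.5 ± 66.7) came next and exchanged places between libraries. Pgk1 was always the fourth, with 135.4 ± 17.7 and 170.2 ± 25.3 CPM per kb. Slc2a1 (46.0 ± 5.63 and 66.1 ± 22.8) and Bnip3 (37.4 ± 2.13 and 48.2 ± 3.62) followed, with Bnip3 above Slc2a1 in mutant replicate 2. Vegfa was always the seventh (23.3 ± 4.93 and 35.1 ± 9.17) and Hif1a the eighth (14.3 ± 1.56 and 16.8 ± 1.64). Pdk1 (6.95 ± 0.43 and 7.29 ± 0.86) and Car9 (6.56 ± 2.63 and 10.6 ± 3.90) were the lowest and changed places. The order of the set was thus nearly the same in control and mutant discs. The summed length counts exons of rare transcripts too, which lowers the level given for genes with many of them. Reads shared with near-identical copies, given below for Pgk1 and Bnip3, could lower a level as well, and with it the rank. The size of this was not tested.

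Counts of several members share sequence or position with another gene, and the library kit named in the labels does not mark strand, so reads of a gene and of a gene on the opposite strand cannot be told apart where they overlap. The strand setting of the counting is not given in the sources used here. Had the counting used strand, reads of any gene would have been divided between its own strand and the opposite one, and counted for another gene or for none there. The counts and levels of the 10 genes could then be too low, by an amount that was not determined. The genes named here were chosen after their values were seen. Gm15283, antisense to Hif1a with 330 shared exon bases, was given 5430 counts over the 6 libraries against 5634 for Hif1a, and its CPM was 73.4 to 86.1 in controls and 84.4 to 103.8 in mutants. The sum of both gave a log2 fold change of 0.24 ± 0.18 (unadjusted p = 0.202), close to that of Hif1a alone. Gm12868, antisense to Slc2a1, was given 8706 counts against 11826, and the sum gave a log2 fold change of 0.47 ± 0.26 (unadjusted p = 0.0994). Gm12454, antisense to Car9, was given 459 counts against 1185; its own log2 fold change was 1.08 ± 0.40 (unadjusted p = 0.0214), and that of the sum was 0.80 ± 0.32 (unadjusted p = 0.0312, adjusted p = 0.676). Eno1 has a near-identical copy, Eno1b, with 6572 counts against 69164 for Eno1. Eno1b had 86.3, 120.3 and 176.4 CPM in controls and 43.9, 94.2 and 94.0 CPM in mutants, a log2 fold change of -0.72 ± 0.33 (unadjusted p = 0.0513) that is opposite in sign to that of Eno1. The sum of Eno1 and Eno1b gave a log2 fold change of 0.21 ± 0.25 (unadjusted p = 0.420). Pgk1, with 2244 exon bases, is identical to Pgk1-rs7 over 1255 bases and to Gm5537 over 1252. These copies were given 7 and 1 counts against 20965 for Pgk1. Bnip3 matches Gm16439 (59 counts against 5944) over 564 bases at 98.94%. Its antisense gene Gm45507, not listed in the deposited tables, shares 504 exon bases. Reads that match a gene and a copy alike may have been left out of the counts, which was not tested.

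The rest of the pathway was read from 6 lists of related genes, with 95 of 98 genes tested. Of these, 11 were higher and 1 lower at an unadjusted p under 0.05, where 2.89% of all genes tested were higher and 4.32% lower. The lists were drawn up with earlier results of these libraries known, so the counts are not independent evidence of a direction, and 8 of the 12 calls come from the last list below. In this test none of the list genes had an adjusted p under 0.05, and the median log2 fold change was 0.16. Among other glycolysis enzymes 24 of 27 were tested, 15 were above 0, and the median was 0.14. Its sign rested on mutant replicate 3, since dropping that library gave -0.01. Dropping control replicate 3 gave 0.07, dropping mutant replicate 1 gave 0.09, dropping mutant replicate 2 gave 0.28, and library totals alone gave 0.03. The number called was 0 without mutant replicate 1, 2 without control replicate 2 or mutant replicate 2, and 5 without control replicate 1, where 4.76% of all genes were called in the first of these fits and 14.1% in the last. The 1 that passed was Pgam1, phosphoglycerate mutase, with 82.4 to 101.1 CPM in controls and 148.5, 92.7 and 127.5 CPM in mutants (0.46 ± 0.21, unadjusted p = 0.0485). Its p was above 0.05 without control replicate 2 or 3 or mutant replicate 1 or 3 (at most 0.156), and also with library totals alone (0.0920). Among the relatives of the members, Aldoc gave a log2 fold change of 0.58 ± 0.29 (unadjusted p = 0.0695) and Eno2 of -0.03 ± 0.25 (unadjusted p = 0.916). Aldoc was 0.40 (unadjusted p = 0.188) without control replicate 1 and 0.33 without mutant replicate 1, and it passed without control replicate 2 (0.89, unadjusted p = 0.0101), mutant replicate 2 or mutant replicate 3. Pgk2, a testis form of Pgk1, had 0 counts in all libraries.

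Of 16 components of the HIF pathway, all tested, 2 were higher and none lower, 13 were above 0, and the median was 0.18. The median was 0.30 without control replicate 1 and 0.11 without control replicate 2. The number called was 0 without mutant replicate 3, 1 without control replicate 2 and 3 without control replicate 1. Egln1, the main oxygen-sensing prolyl hydroxylase and itself a HIF target, had 89.8, 83.5 and 82.1 CPM in controls and 155.1, 92.3 and 146.8 CPM in mutants. Its groups did not overlap, although mutant replicate 2 was just above the controls (log2 fold change 0.63 ± 0.21, unadjusted p = 0.0150). Ep300, a coactivator that HIF-1α recruits, had 19.5 to 24.2 CPM in controls and 37.0, 25.3 and 38.7 CPM in mutants (0.58 ± 0.20, unadjusted p = 0.0172). The p of Egln1 was above 0.05 without mutant replicate 1 or 3 (at most 0.0555), and that of Ep300 without control replicate 2 or mutant replicate 3 (at most 0.0712) and with library totals alone (0.0579). The other HIF-α subunits, Epas1 (HIF-2α) and Hif3a, had log2 fold changes of 0.23 ± 0.21 (unadjusted p = 0.305) and 0.63 ± 0.43 (unadjusted p = 0.174). Epas1 passed when the pool with muscle RNA was dropped: without control replicate 1 it was 0.48 (unadjusted p = 0.0351), and without any other library it was 0.12 to 0.31. The list of the VEGF family and its receptors holds 9 genes other than Vegfa. Of these 9, none was called in either direction at an unadjusted p under 0.05, but 2 were called without control replicate 1 and 2 with limma-voom. Their median was 0.21, and it was below 0 without control replicate 2 (-0.03) or mutant replicate 2 (-0.02). It was 0.39 without mutant replicate 1 and 0.09 with library totals alone. Their sum was 142.7 to 291.8 CPM in controls and 204.7 to 273.3 in mutants.

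The list of other hypoxia-responsive genes had the most calls, 7 higher and 1 lower of 24 tested, with 18 above 0 and a median of 0.22. The 8 calls became 4 without control replicate 3 and 5 without mutant replicate 1, and were 6 to 9 without any other library. The median was 0.33 without control replicate 1. Bhlhe40, a transcriptional repressor, had 38.3, 29.98 and 25.4 CPM in controls and 93.8, 47.3 and 63.4 CPM in mutants (1.13 ± 0.26, unadjusted p = 0.00140). Ddit4, an inhibitor of mTORC1 also known as REDD1, had 160.2, 111.9 and 114.6 CPM in controls and 285.5, 181.4 and 259.1 CPM in mutants (0.91 ± 0.23, unadjusted p = 0.00269). For these 2 genes every mutant library exceeded every control, and p was under 0.05 with any 1 of the 6 libraries left out. The adjusted p, 0.556 for Bhlhe40 and 0.625 for Ddit4 in edgeR's test, was 0.0156 and 0.0175 with DESeq2. That fit differed in the number of genes tested as well as in the test, and called 52 of 26372 genes by this rule. With no filter on low counts in edgeR the adjusted p was 9.67e-04 and 0.0214, with 245 of 26418 genes called. It was 0.226 or more with limma-voom and 0.0773 or more with any single library left out. Both are also known to respond to signals other than low oxygen, such as glucocorticoids.

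Also higher were Hmox1, heme oxygenase (0.88 ± 0.38, unadjusted p = 0.0400), Lox, a collagen crosslinking enzyme (0.75 ± 0.26, unadjusted p = 0.0162), Vldlr, a lipoprotein receptor (0.68 ± 0.27, unadjusted p = 0.0294), and Kdm3a, a histone demethylase (0.53 ± 0.19, unadjusted p = 0.0173). Each of these 4 had a p above 0.05 with at least 1 single library left out, and Hmox1, Vldlr and Kdm3a also with library totals alone (0.0524 to 0.0721). Limma-voom also took Vldlr past 0.05 (0.112). The 1 gene lower was Car12, given above. The lists also hold 3 genes that were too low to test, Hk3, Pgk2 and Ldhc.

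**Figure D5:**
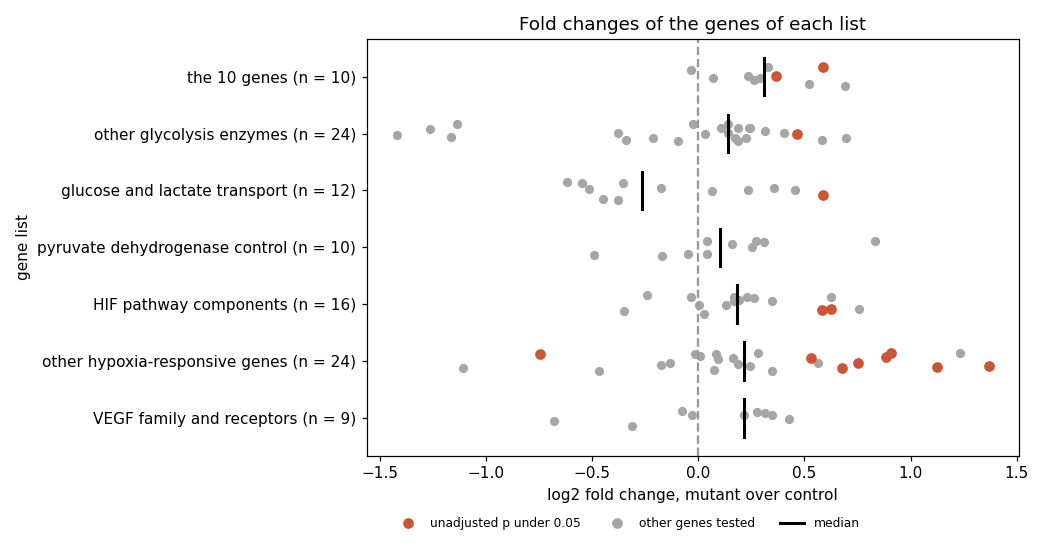
Log2 fold change of mutant over control (horizontal axis) of every tested gene of the 10 and of 6 lists of related genes, with orange points for an unadjusted p under 0.05, grey points for other genes and black bars for medians. The median of the 10 genes is 0.31, and most calls on the lists lie among other hypoxia-responsive genes.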

How the data were processed

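RNA was poly(A) selected and libraries were made with the NEBNext Ultra RNA kit, per the labels. The authors deposited 1 table of raw counts per gene symbol for each library. The submitters' processing notes name STAR 2.5.3a, HTSeq and DESeq2 with mm10/GRCm38, whereas the paper's methods name Cutadapt, FastQC and HISAT2, so the aligner behind the counts is uncertain, and the strand setting of the counting is not given in the sources used here. Reads without a gene (39.43% to 43.33% of each library), reads that were not aligned or were ambiguous, and the authors' table of fold changes, p-values and normalized values were not used.

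Mutant and control counts were tested in edgeR 4.0.16 (R 4.3.3): TMM scaling, filterByExpr with a count minimum of 10, the two-sided quasi-likelihood test and Benjamini-Hochberg adjustment over all 16152 genes. CPM values use TMM library sizes. The SE is the log2 fold change divided by the square root of F, and intervals are 95%. With reads that carry no molecular identifiers, the 9061491 to 12017008 counts on genes per library set the counting error only. Log2 CPM of pairs of libraries correlated across genes at 0.90 to 0.96. The scripts were tested on simulated data.

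Alternatives were RLE factors, library totals alone, no filter, a replicate block, DESeq2 1.42.0, limma-voom (limma 3.58.1) with quality weights, each library left out, and, chosen after seeing the data, counts summed with a near copy or opposite-strand gene. DESeq2 tested 26372 genes and the fit with no filter 26418, against 16152 in the main test, so shares of genes called refer to different sets. Named were the 10 genes, list genes with an unadjusted p under 0.05, and relatives of the 10; some of these are not reported here by name, but counts and medians include them. The genes and lists were chosen with earlier results of these data known. Gene coordinates and exon lengths are from GENCODE M21 (GRCm38). The symbol Aldoa names 2 gene models there, of which the one given was used. Promoters are from RefSeq (GRCm38.p6).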

Additional observations from a re-analysis of the deposited data

How the results depend on the processing

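No fit gave any of the 10 genes an adjusted p under 0.05, and the median of their log2 fold changes was 0.19 to 0.45 over all fits. The count at an unadjusted p under 0.05, 2 in the test reported (7.21% of all genes), was 1 with library totals alone (7.57%), 1 with the replicate block (6.2%), 4 with DESeq2 (6.07%), 4 with limma-voom (9.14%) and 3 with no filter (8.62%). The 3 were Vegfa, Slc2a1 (unadjusted p = 0.0229) and Car9 (unadjusted p = 0.00798), not Bnip3. With 1 library left out it was 0 to 4, with 3.77% to 14.1% of all genes called. It was 0 without the third control (3.77%) or without the first (4.76%) or the third mutant library (5.1%), and the cause was not tested. Library totals alone moved the median of all genes from -0.01 to -0.13 and turned Pdk1 to -0.048. Aldoa turned to 0.15 with limma-voom and was -0.23 to 0.16 with 1 library left out, above 0 without control replicate 1 or mutant replicate 2. Eno2 turned to 0.016 with the replicate block and was -0.22 to 0.26 with 1 library left out. Over the same fits Slc2a3 was -0.31 to 0.080 and Eno3 was -1.65 to 0.12, above 0 only without control replicate 1. The log2 ratio of Hif1a to Epas1, -0.01 in all libraries, was -0.14 to 0.11 with 1 left out. The other 7 ratios kept their sign. Whether replicate numbers pair the libraries was not settled. Same-numbered deviations from the group means correlated at 0.16, -0.13 and 0.10 across genes, and differently numbered ones at -0.265 to 0.179. Such correlations show no pairing by number but cannot exclude it. With the replicate block, Pgam1 (unadjusted p = 0.0568) and Bnip3 lost their calls, Bnip3 had a log2 fold change of 0.37 with unadjusted p = 0.0842, and Vegfa kept its call. The calls among other glycolysis enzymes, 1 in the test reported, were 0 with the replicate block, 2 with DESeq2, 3 with limma-voom and 4 with no filter. Car9, lowest in counts, had the widest interval of the set.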
